A study of Mus musculus with 10 samples.

Results

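The genes described here are the small nucleolar RNA (snoRNA) genes that a mouse gene array read on their own. Every gene whose symbol starts with Snord or Snora and a digit, and that had a probeset annotated with that symbol alone, was taken, and a gene with several such probesets was read by the one with the highest mean over the arrays. This gave 51 of the 19938 genes with a probeset of their own, 31 of the box C/D class (Snord) and 20 of the box H/ACA class (Snora). All 51 were described, with no filter on signal. SnoRNAs that shared every probeset with another symbol, 18 in number, were not analysed here.

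SnoRNAs are short RNAs of the nucleolus that pair with ribosomal RNA and direct proteins to single nucleotides. Box C/D RNAs guide methylation of the ribose by fibrillarin, box H/ACA RNAs guide the change of uridine to pseudouridine by dyskerin, and a few members of each class act in the cutting of the ribosomal RNA precursor. Most mammalian snoRNAs have no promoter of their own but are trimmed out of introns of a host gene, which is often a gene of the ribosome or of translation.

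The RNA came from wild-type mouse embryonic fibroblasts (MEFs) that had been irradiated, so that they no longer divided, and was taken on day 9 of culture. The groups were MEFs + ALL + nilotinib (3 arrays), in which MEFs shared the culture with acute lymphoblastic leukemia (ALL) cells treated with 16 nM of the Abl kinase inhibitor nilotinib, MEFs + ALL + DMSO (1 array), in which the ALL cells received only the solvent, MEFs + nilotinib (3 arrays) and MEFs + DMSO (3 arrays), both without ALL cells. The ALL cells were 8093 cells, a line of murine precursor B lymphoblasts from a Bcr/Abl transgenic mouse, kept apart from the MEFs by a Transwell membrane. Replicates were separate dishes of MEFs, so that p-values measure the spread between dishes. Values are log2 RMA signals of the Mouse Gene 1.0 ST array as deposited, with array medians from 6.94 to 7.01.

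The single MEFs + ALL + DMSO array stood apart, and its label needs a caution before any result that rests on it. According to the methods, other samples of that group were set aside because ALL cells had contaminated them. On the array that remains, 15 of 17 measured markers of leukocytes and B-lineage cells rose against MEFs + DMSO (limma, adjusted p under 0.05), with a median log2 difference of 2.05 over the list. Igll1, the surrogate light chain of precursor B cells, had a log2 signal of 11.08 there and a mean of 6.90 in MEFs + DMSO. The mean log2 signal of the 17 markers was 8.72 on that array, 6.80 to 6.91 on the MEFs + ALL + nilotinib arrays, 6.79 to 6.94 on the MEFs + nilotinib arrays and 6.83 to 6.90 on the MEFs + DMSO arrays. Rag2 and Blnk, the exceptions among the 17, differed by -0.001 and 0.02. The 10 fibroblast markers had a mean of 11.67 on the MEFs + ALL + DMSO array, 11.84 to 11.87 on the MEFs + ALL + nilotinib arrays, 11.66 to 11.79 on the MEFs + nilotinib arrays and 11.74 to 11.81 on the MEFs + DMSO arrays, so fibroblast genes were bright everywhere. Of these 10, Thy1 and Lum rose on the lone array by 0.59 and 0.65 and the collagen gene Col1a2 fell by 0.66. Of the 9 macrophage markers limma called 0 there, with 1 at an unadjusted p under 0.05.

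SnoRNA genes of both classes were high on that array. Of the 51 genes, 12 rose against MEFs + DMSO and 0 fell (limma, adjusted p under 0.05), 6 of 31 box C/D and 6 of 20 box H/ACA genes. This was 23.5% of the snoRNA genes, where of all 35557 probesets 10.3% passed the test and 6.67% passed as higher. The median log2 difference was 0.52 over box C/D genes, 0.41 over box H/ACA genes and -0.07 over all probesets. The array lay above all 3 MEFs + DMSO arrays for 43 of 51 genes (84.3%) and below all 3 for 3 (5.88%), where 30.4% and 45% of all probesets did so. An unadjusted p under 0.05 was reached by 30 genes (58.8%), beside 27.9% of all probesets. The difference was above 0 for 45 genes (88.2%) and for 41.1% of all probesets, and the array was the brightest of all 10 for 39 snoRNA genes (76.5%) and for 15.7% of all probesets. The leukocyte and B-lineage markers given above moved on the same array, and their part in the snoRNA result was not tested. With 1 array the test assumes that this group varies between dishes as the other groups do. In RNA from a whole dish, fewer cells of a type and less RNA per cell cannot be told apart.

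**Figure D1:**
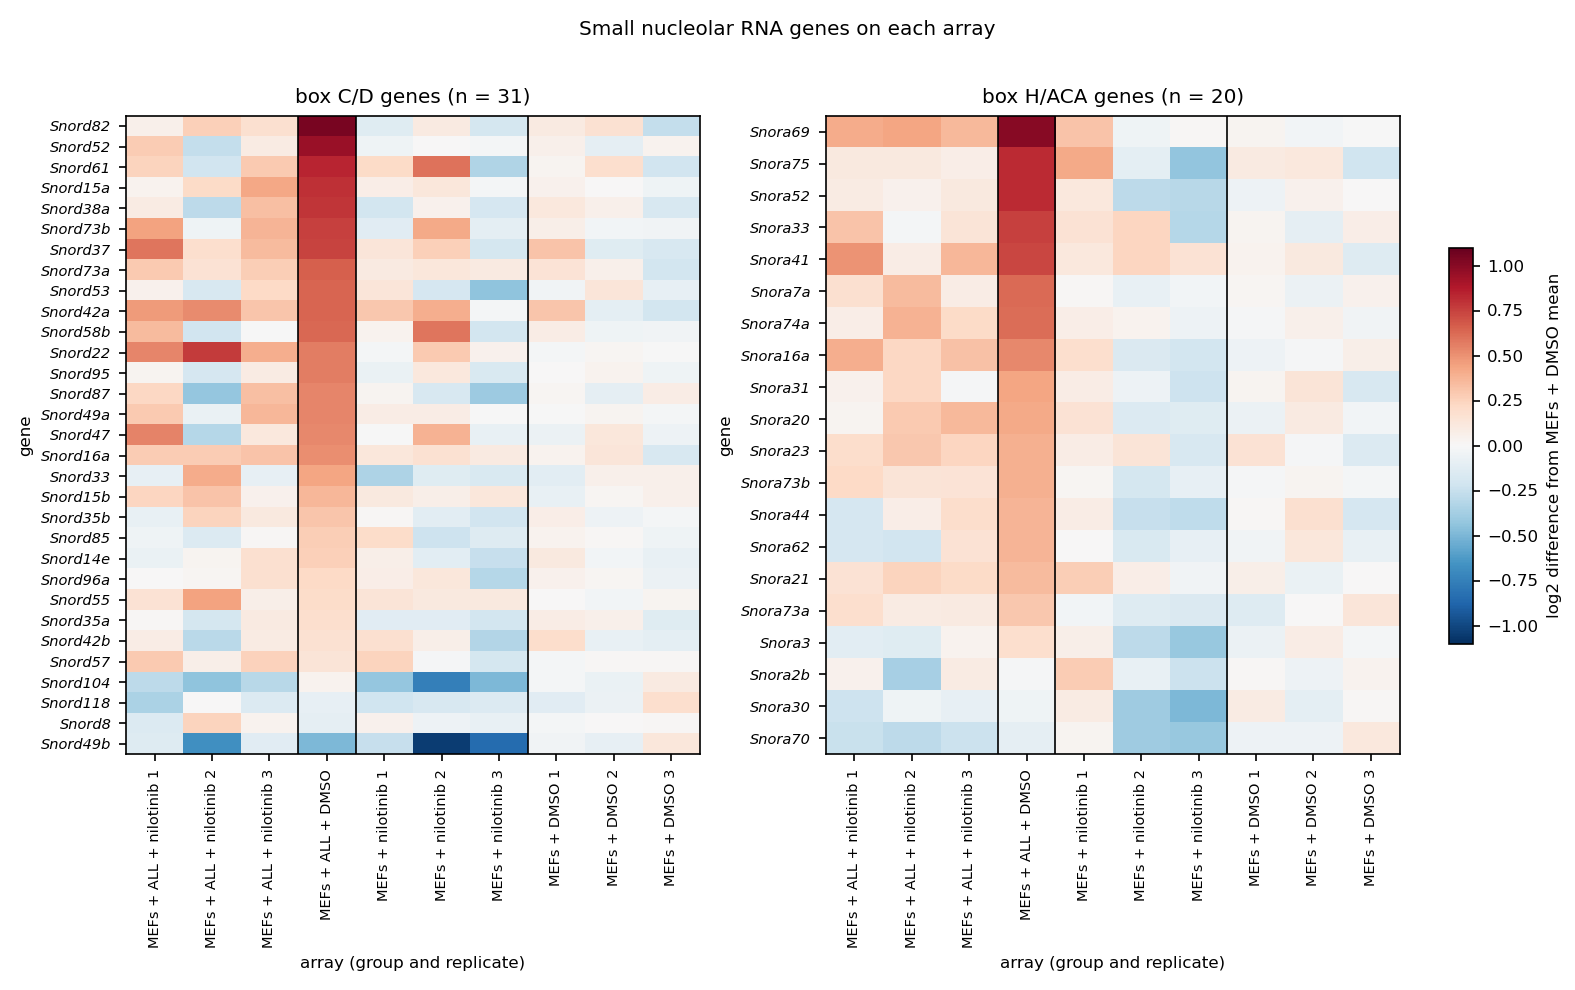
Log2 difference of each snoRNA gene (rows, ordered by the difference on the MEFs + ALL + DMSO array) from its MEFs + DMSO mean on each of the 10 arrays (columns, by group and replicate), with box C/D genes in the left panel and box H/ACA genes in the right. Red is above and blue below the MEFs + DMSO mean; the MEFs + ALL + DMSO column is red for 45 of 51 genes.

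The box H/ACA gene with the largest difference on that array was Snora69, which lies within Rpl39. Its log2 signal was 7.44 on the MEFs + ALL + DMSO array, against 6.46, 6.40 and 6.43 on the MEFs + DMSO arrays. The log2 difference was 1.01 ± 0.13 (SE, limma adjusted p = 0.002). It read 6.84, 6.87 and 6.79 on the MEFs + ALL + nilotinib arrays, which also lay above every MEFs + DMSO array, while the MEFs + nilotinib arrays read 6.74, 6.39 and 6.44.

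Snord82 and Snora75, a C/D and an H/ACA RNA, lie within the same host, Ncl, which encodes nucleolin, an abundant protein of the nucleolus. Snord82 read 8.15 on the MEFs + ALL + DMSO array, against 7.20, 7.27 and 6.84 on the MEFs + DMSO arrays, a log2 difference of 1.04 ± 0.18 (SE, limma adjusted p = 0.009), the largest of all 51. Snora75 read 7.82 there, against 7.10, 7.12 and 6.78 in MEFs + DMSO, and with a difference of 0.82 ± 0.275 (SE) did not pass (limma adjusted p = 0.097). Both were brightest on the lone array, but Snora75 varied more between dishes, with an SD of 0.43 over the MEFs + nilotinib arrays.

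Snord52 lies within the noncoding gene 1110038B12Rik. It read 8.27 on the MEFs + ALL + DMSO array, against 7.37, 7.22 and 7.36 on the MEFs + DMSO arrays, a difference of 0.95 ± 0.18 (SE, limma adjusted p = 0.013). Its MEFs + ALL + nilotinib arrays read 7.59, 7.05 and 7.41, a range that held all the MEFs + DMSO values. The MEFs + nilotinib arrays read 7.27, 7.32 and 7.29. The lone array was the highest of the 10, and MEFs + ALL + nilotinib replicate 2 the lowest.

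Snora52 and Snora41 are H/ACA RNAs within Rplp2, a gene of the ribosomal stalk, and Eef1b2, a gene of translation elongation. Snora52 read 9.01 on the MEFs + ALL + DMSO array, against 8.14, 8.23 and 8.19 in MEFs + DMSO (0.82 ± 0.155, SE; limma adjusted p = 0.014). Snora41 read 6.88 there, against 6.18, 6.25 and 6.0 (0.73 ± 0.16, SE; limma adjusted p = 0.025). The lone array lay outside the spread of every other dish for both.

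Within Rps3, a gene of the small ribosomal subunit, lie Snord15a and Snord15b, the U15 pair. Snord15a read 7.69 on the MEFs + ALL + DMSO array, against 6.93, 6.88 and 6.83 in MEFs + DMSO, a difference of 0.81 ± 0.14 (SE, limma adjusted p = 0.009). Snord15b read 9.53, against 9.09, 9.19 and 9.22, a difference of 0.37 ± 0.11 (SE) that did not pass (limma adjusted p = 0.077). The copies share sequence, so a probe may read some RNA of its partner.

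The other 6 genes that rose on the MEFs + ALL + DMSO array had log2 differences from 0.39 to 0.66. Snord73a, within Rps3a1, differed by 0.66 ± 0.13 (SE, limma adjusted p = 0.016). Snora7a, within Rpl32, differed by 0.62 ± 0.11 and Snora74a, within Snhg4, by 0.61 ± 0.12 (SE), with limma adjusted p of 0.010 and 0.017. These values exceeded the SD between dishes of the same gene, which was at most 0.18 in any group for the 3 genes. Snord95, within Rack1, a scaffold protein of the ribosome, differed by 0.56 ± 0.14 (SE, limma adjusted p = 0.040). Snord16a, the U16 RNA within Rpl4, differed by 0.51 ± 0.12 (SE, limma adjusted p = 0.028). Snora73b, a U17 RNA that in yeast and vertebrates acts in making 18S rRNA, differed by 0.39 ± 0.10 (SE, limma adjusted p = 0.038). The calls of Snord95 and Snora73b were lost when any single MEFs + DMSO array was left out, with adjusted p from 0.080 to 0.095 and from 0.081 to 0.090. The call of Snora41 was lost without MEFs + DMSO replicate 1 or 3 (0.052 and 0.061) and that of Snord16a without replicate 1 (0.056).

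Several genes differed as much without passing. Snord61, within Rbmx, read 6.85 on the MEFs + ALL + DMSO array, against 6.04, 6.19 and 5.80 in MEFs + DMSO, a difference of 0.84 ± 0.33 (SE, limma adjusted p = 0.143). Among all 51 it had the largest mean SD between dishes, 0.31. Just outside the threshold stood Snord22 at an adjusted p of 0.056, and just inside it Snord95 at 0.040.

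The exceptions to the upward shift were few. Snord49b had the lowest difference on the MEFs + ALL + DMSO array, where it read 10.00, against 10.45, 10.41 and 10.62 in MEFs + DMSO (-0.49 ± 0.31, SE; limma adjusted p = 0.335). Snora70, within Rpl10, and Snord8 also lay below every MEFs + DMSO array there, by -0.10 and -0.09, with adjusted p of 0.739 and 0.695. None of the 3 passed the test.

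The shift was not shared by microRNA genes, the other small RNA class on the array. These were dimmer, with 83 of 300 at a mean log2 signal under 5, beside 3 of 51 snoRNA genes. The classes were not compared at equal signal. Over 300 microRNA genes the median log2 difference between the MEFs + ALL + DMSO array and MEFs + DMSO was -0.15, with 10 genes called higher and 9 lower, and 29.7% of them lay above 0. The 3 measured scaRNAs, relatives of the snoRNAs that reside in Cajal bodies and guide changes in spliceosomal RNAs, differed by 0.27 to 0.64, and 2 rose. Of 5 spliceosomal RNA genes limma called 0, with 1 at an unadjusted p under 0.05.

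**Figure D2:**
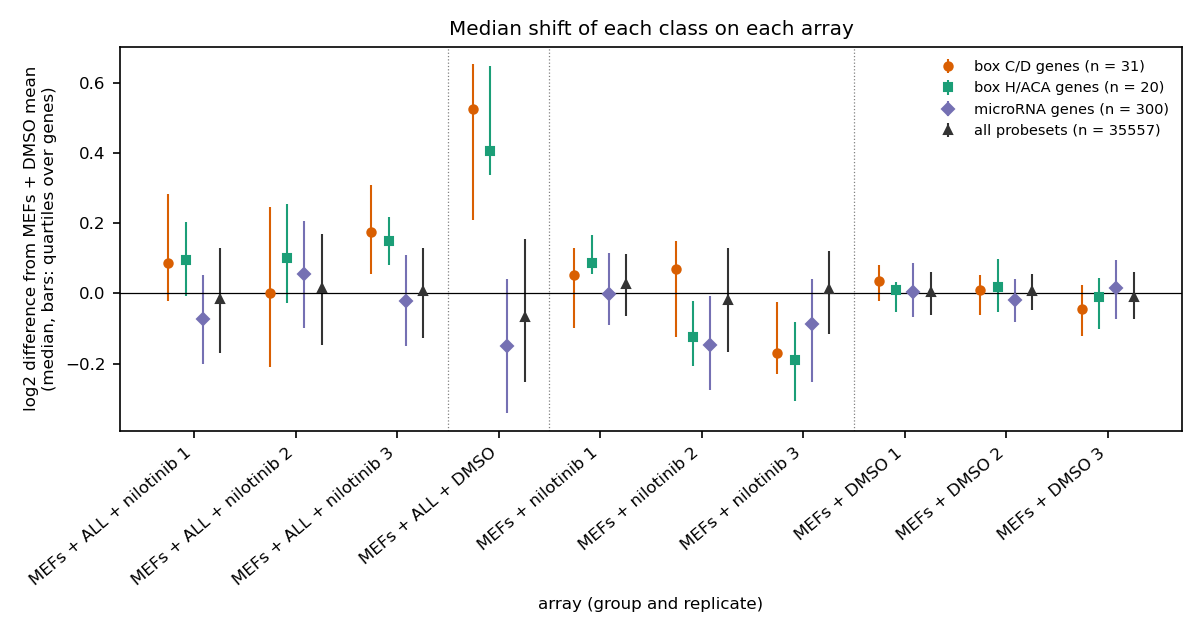
Median log2 difference from the MEFs + DMSO mean (points) with the quartiles over genes (bars) on each of the 10 arrays, for box C/D genes, box H/ACA genes, microRNA genes and all probesets. On the MEFs + ALL + DMSO array the snoRNA classes reach 0.52 and 0.41 while microRNA genes are at -0.15; MEFs + nilotinib replicate 3 is the lowest array for both snoRNA classes.

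Proteins of the snoRNA particles were set beside the RNAs. Of the box C/D core proteins, 3 of 4 rose on the MEFs + ALL + DMSO array and 0 fell: fibrillarin (Fbl), the methyltransferase, by 0.61 ± 0.13, Snu13 by 0.44 ± 0.08 and Nop56 by 0.42 ± 0.09 (SE, limma adjusted p from 0.009 to 0.023). The fourth, Nop58, differed by 0.55 ± 0.20 (SE, limma adjusted p = 0.112). Of the 4 box H/ACA core proteins 1 rose, Dkc1, which encodes the pseudouridine synthase dyskerin, with a log2 signal of 10.02 on the lone array and a mean of 8.44 in MEFs + DMSO (1.58 ± 0.18, SE; limma adjusted p = 0.001). The others, Gar1, Nhp2 and Nop10, differed by -0.05, 0.22 and 0.26.

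Among 13 genes of snoRNA particle assembly and transport, 3 rose and 0 fell on that array, where 6.67% of all probesets rose, with a list median of 0.25: Nufip1, which bridges assembly factors, by 0.73 ± 0.15, Nolc1, a nucleolar chaperone that binds both classes, by 0.61 ± 0.09, and the helicase Ruvbl2 by 0.37 ± 0.09 (SE). Of 8 genes of snoRNA trimming and intron debranching 2 rose and 0 fell, with a median of 0.22, both of them exosome genes, Exosc3 by 0.81 ± 0.12 and Exosc10 by 0.49 ± 0.10 (SE). Of 20 genes of ribosomal RNA transcription and processing 3 rose and 0 fell, with a median of 0.32: Ubtf, a factor of RNA polymerase I, by 0.43 ± 0.09, Ddx21 by 0.41 ± 0.09 and Nob1 by 0.38 ± 0.08 (SE). The calls of Fbl, Nop56 and Ubtf were lost when any single MEFs + DMSO array was left out. Limma called 0 of the genes of these lists between MEFs + ALL + nilotinib and MEFs + DMSO, where an unadjusted p under 0.05 was reached by 1 of 4 box C/D and 0 of 4 box H/ACA core proteins, 5 of 13 assembly, 1 of 8 trimming and 5 of 20 ribosomal RNA genes, beside 16.2% of all probesets. Their part in the snoRNA result was not tested.

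Of the 51 snoRNA genes, 50 lay within the span of another RefSeq gene, of which there were 40 in all, 37 in protein-coding genes and 13 in noncoding ones. The exception was Snord118 (U8), which acts in making the RNAs of the large ribosomal subunit and is transcribed on its own. Ribosomal protein genes held 21 of the 51, 13 box C/D and 8 box H/ACA. RNA lengths ran from 45 to 148 bases for box C/D and from 61 to 205 for box H/ACA genes, so that few probes can read each, and a probe within an intron reads the trimmed RNA and the unspliced host precursor alike.

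For 27 snoRNA genes the host had a probeset of its own, 23 hosts in all. Of these, 5 rose on the MEFs + ALL + DMSO array and 0 fell: Rbmx, Rplp2, Eef1b2, Wdr43 and Nop56. The median log2 difference was 0.51 over the 27 snoRNA genes and 0.20 over the same number of paired host values, and the snoRNA gene exceeded its host in 21 pairs. Across the pairs the differences had a Pearson's r of 0.56 and a Spearman's rho of 0.58, as a description over 27 pairs that share the same 4 arrays and in part the same host. Snord61 and its host Rbmx both differed by 0.84, and Snora52 by 0.82 where its host Rplp2 differed by 0.57. Snord15a, however, differed by 0.81 and its host Rps3 by 0.10, and Snord57 by 0.14 and its host Nop56 by 0.42. In MEFs + ALL + nilotinib over MEFs + DMSO the same 27 pairs had a Pearson's r of 0.02.

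**Figure D3:**
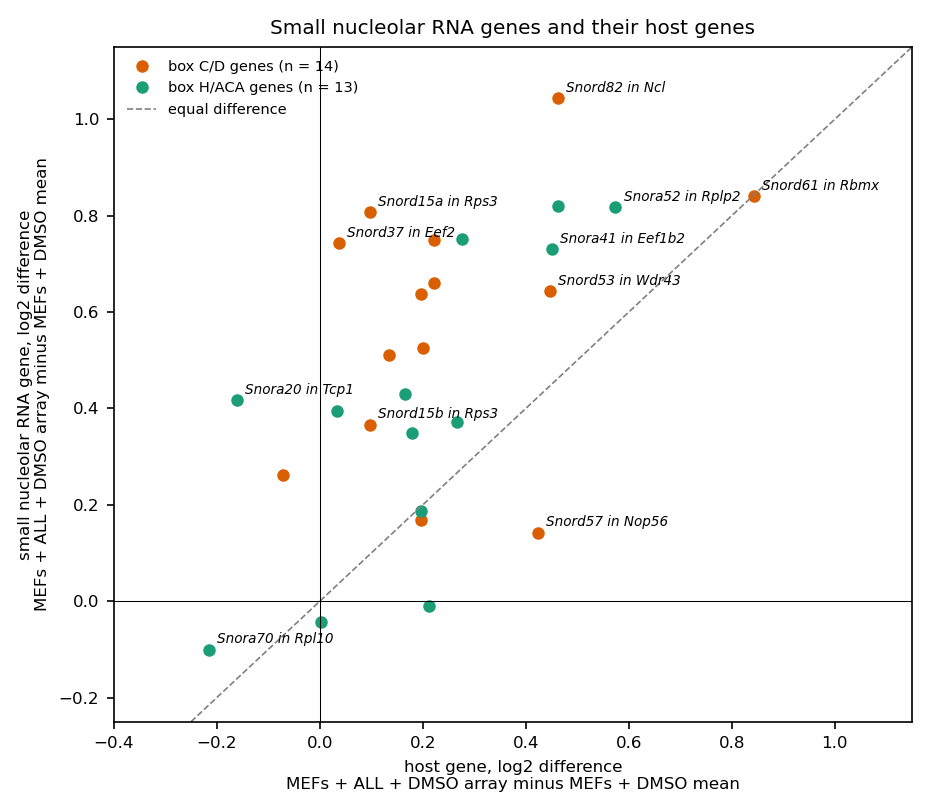
Log2 difference between the MEFs + ALL + DMSO array and the MEFs + DMSO mean for 27 snoRNA genes (vertical axis) and for the gene within which each lies (horizontal axis), with box C/D and box H/ACA genes in separate colours and a dashed line of equal difference. The snoRNA gene lies above the line in 21 pairs, and Snord61 with its host Rbmx lies near it.

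Many snoRNA hosts start transcription within a run of C and T, the terminal oligopyrimidine feature known from genes of the translation machinery. A script searched the 20 bases before and the 20 from the start site of each gene for at least 7 bases in a row that are C or T, in RefSeq sequences of GRCm38.p6. A run anywhere in this window was counted, so that it need not hold the start site. The count is therefore wider than the feature named above. Of the 40 hosts, 30 had a sequence, and 13 of the 30 (43.3%) held such a run, beside 24.2% of 27025 genes. The same run on the other strand, of A and G, was held by 16.7% of hosts and 26.2% of all genes. Of the hosts with a sequence, 10 held a snoRNA gene that rose on the MEFs + ALL + DMSO array, and 5 of these had a run while 5 had none. The starts of all 10 follow, the 5 with a run first, so that both kinds can be seen, with runs in capitals and the start site at base 21.
Rplp2, host of Snora52, chr7:141447631-141447670, plus strand: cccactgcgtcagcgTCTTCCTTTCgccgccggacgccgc
Rack1, host of Snord95, chr11:48800340-48800379, plus strand: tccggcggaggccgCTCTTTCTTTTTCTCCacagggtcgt
Rpl4, host of Snord16a, chr9:64173367-64173406, plus strand: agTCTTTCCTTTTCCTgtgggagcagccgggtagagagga
Rpl39, host of Snora69, chrX:37085203-37085242, minus strand: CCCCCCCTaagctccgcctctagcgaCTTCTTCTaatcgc
1110038B12Rik, host of Snord52, chr17:34952452-34952491, minus strand: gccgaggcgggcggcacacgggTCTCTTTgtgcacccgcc
Ncl, host of Snord82 and Snora75, chr1:86359436-86359475, minus strand: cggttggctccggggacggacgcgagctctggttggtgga
Eef1b2, host of Snora41, chr1:63176811-63176850, plus strand: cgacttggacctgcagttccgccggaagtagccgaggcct
Rps3, host of Snord15a, chr7:99483690-99483729, minus strand: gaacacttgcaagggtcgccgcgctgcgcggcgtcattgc
Rps3a1, host of Snord73a, chr3:86142649-86142688, minus strand: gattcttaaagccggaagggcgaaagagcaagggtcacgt
Snhg3, host of Snora73b, chr4:132353667-132353706, minus strand: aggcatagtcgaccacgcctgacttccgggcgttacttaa
The run was 16 bases long in Rack1 and 8 in Rpl39, and Ncl, whose snoRNA Snord82 had the largest difference, held none in this window. The run held the start site in Rplp2 and Rack1, but not in Rpl4, Rpl39 or 1110038B12Rik. A match says only that these letters stand there.

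A list of genes known mainly as snoRNA hosts, most of them noncoding, held 21 genes, of which 9 were measured. Of these, 3 rose and 0 fell on the MEFs + ALL + DMSO array, with a median of 0.20: Taf1d by 2.26 ± 0.13, Snhg5 by 0.59 ± 0.13 and Dancr by 0.52 ± 0.14 (SE, limma adjusted p under 0.05). Taf1d, which also encodes a protein of the polymerase I machinery, had a log2 signal of 11.69 there and a mean of 9.43 in MEFs + DMSO. Gas5, host of Snord47 and other C/D RNAs, differed by 0.20.

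MEFs kept with nilotinib-treated ALL cells were set against MEFs + DMSO to ask whether the replicated group moved in the same genes. Limma called 0 of 51 snoRNA genes between MEFs + ALL + nilotinib and MEFs + DMSO, and 223 of all probesets (0.627%). The median log2 difference was 0.08 over box C/D genes, 0.14 over box H/ACA genes and -0.004 over all probesets. The box C/D median was 0.14 without MEFs + ALL + nilotinib replicate 2 and 0.05 without MEFs + DMSO replicate 3. The difference was above 0 for 39 genes (76.5%), where 49% of all probesets lay above 0. An unadjusted p under 0.05 was reached by 16 genes (31.4%) beside 16.2% of all probesets. The arrays did not overlap and were higher for 12 genes (23.5%) beside 14.1%, and lower for 3 (5.88%) beside 10.6%.

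Snord22 led the comparison. This is U22, which acts in making 18S rRNA in frogs, and lies within Snhg1. It read 9.71, 9.95 and 9.58 on the MEFs + ALL + nilotinib arrays, against 9.16, 9.20 and 9.18 on the MEFs + DMSO arrays. All the dishes with ALL cells lay above all those without, also the MEFs + nilotinib arrays at 9.16, 9.46 and 9.23. The difference was 0.57 ± 0.11 (SE, limma adjusted p = 0.073). It read 9.74 on the MEFs + ALL + DMSO array, a difference from MEFs + DMSO of the same size, 0.57 ± 0.16 (SE), where the box C/D median was 0.52. With array weights, with trend and robust, or without the dimmest 25% of probesets Snord22 passed in MEFs + ALL + nilotinib over MEFs + DMSO (limma adjusted p of 0.027, 0.042 and 0.047). It did not pass with quantile normalization, centring, only the groups compared or a replicate block, nor with any single array of these groups left out.

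**Figure D4:**
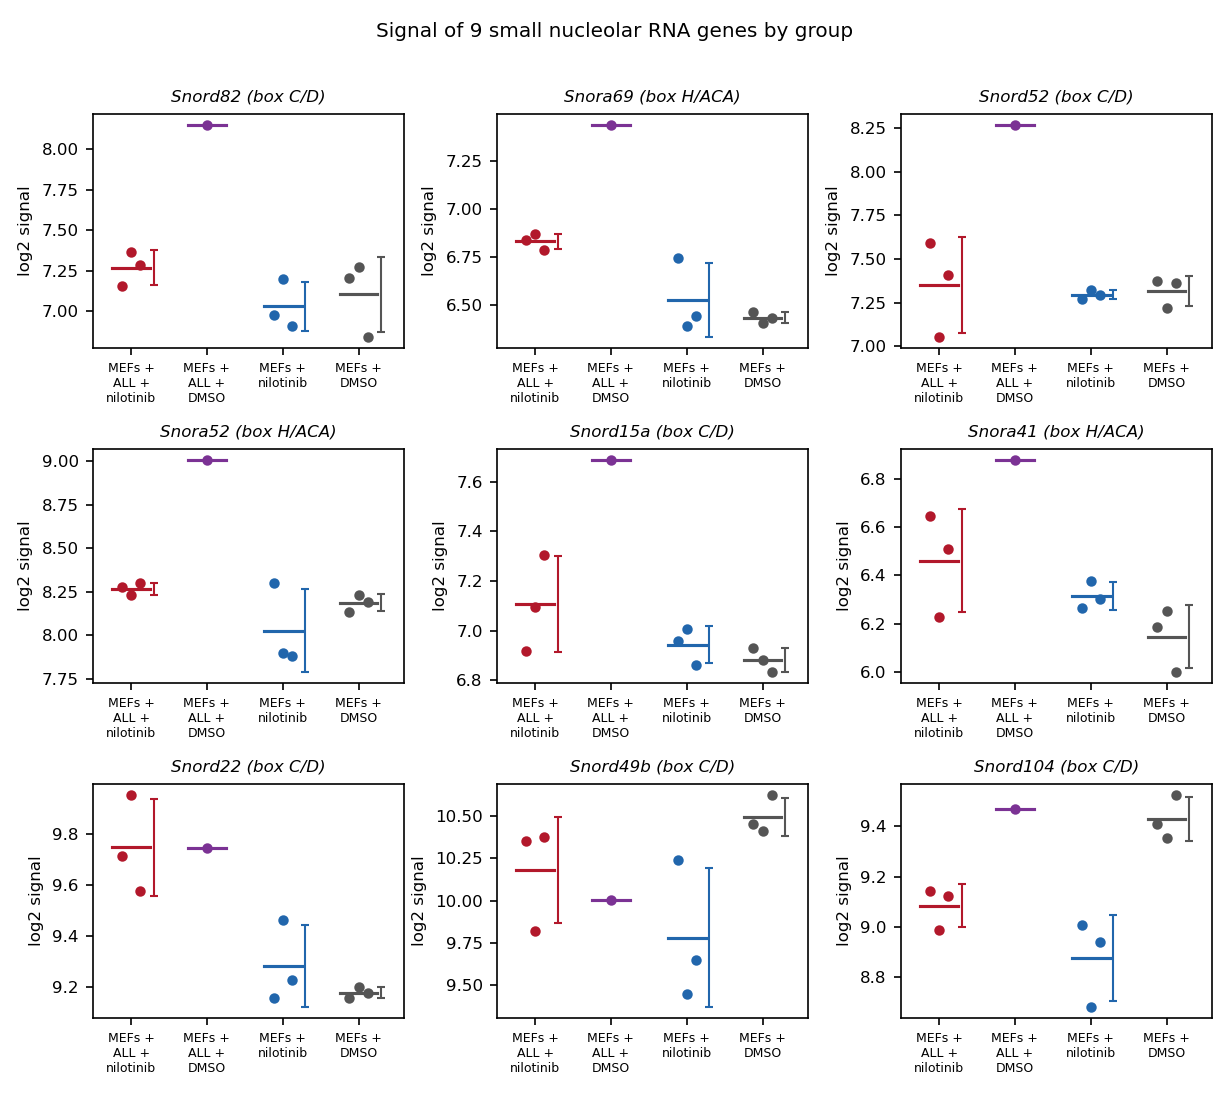
Log2 signal of 9 snoRNA genes on each array (points) by group, with the group mean (horizontal line) and, for groups of 3 arrays, the SD (bar at the right). Snord82, Snora69, Snord52, Snora52, Snord15a and Snora41 are highest on the MEFs + ALL + DMSO array, Snord22 is high in both groups with ALL cells, and Snord49b and Snord104 are low in MEFs + nilotinib.

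Among genes whose arrays did not overlap Snora69 was next, with the values given above and a difference of 0.40 ± 0.09 (SE, limma adjusted p = 0.109), and it passed with array weights alone (0.035). Snora16a, within the noncoding gene Snhg12, read 7.31, 7.14 and 7.23 on the MEFs + ALL + nilotinib arrays, against 6.86, 6.90 and 6.98 on the MEFs + DMSO arrays. The difference was 0.32 ± 0.11 (SE, limma adjusted p = 0.205). Snora44, a member of the same host, read 6.49, 6.75 and 6.87 in MEFs + ALL + nilotinib, against 6.69, 6.85 and 6.49 in MEFs + DMSO, and differed by 0.02, so that the host's members did not show equal differences. Snord16a differed by 0.29 ± 0.08 and Snora23, within Ipo7, by 0.24 ± 0.105 (SE), with arrays that did not overlap and limma adjusted p of 0.153 and 0.300. The 3 genes whose MEFs + ALL + nilotinib arrays all lay below MEFs + DMSO were Snord104, Snord49b and Snora70.

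MEFs + nilotinib and MEFs + DMSO were compared for the effect of the drug without ALL cells. Limma called 0 of 51 snoRNA genes and 0 of all probesets (0%) between MEFs + nilotinib and MEFs + DMSO. An unadjusted p under 0.05 was reached by 2 snoRNA genes (3.92%) beside 11.2% of all probesets. The median log2 difference was -0.03 over box C/D genes, -0.05 over box H/ACA genes and 0.002 over all probesets, and 20 genes (39.2%) lay above 0 beside 50.6% of all probesets. Arrays did not overlap and were higher for 3 genes (5.88%, beside 13.6%) and lower for 4 (7.84%, beside 7.05%).

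Snord49b was one of the 2 with an unadjusted p under 0.05. It read 10.24, 9.45 and 9.65 on the MEFs + nilotinib arrays, against 10.45, 10.41 and 10.62 on the MEFs + DMSO arrays. The difference was -0.71 ± 0.22 (SE, limma adjusted p = 0.368), and the MEFs + nilotinib arrays spread over an SD of 0.41. Its neighbour Snord49a lies within the same host, 2410006H16Rik, and read 8.18, 8.18 and 8.09 in MEFs + nilotinib, against 8.09, 8.13 and 8.08 in MEFs + DMSO. The pair differed over the arrays, with a Pearson's r of 0.07 over the 10 arrays as a description, whereas Snora73a and Snora73b, near-identical copies in Snhg3, had an r of 0.88.

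Snord104 was the other. It read 9.01, 8.68 and 8.94 on the MEFs + nilotinib arrays, against 9.41, 9.35 and 9.52 on the MEFs + DMSO arrays, a difference of -0.55 ± 0.10 (SE, limma adjusted p = 0.338). Its MEFs + ALL + nilotinib arrays read 9.14, 8.99 and 9.12, a difference from MEFs + DMSO of -0.34 ± 0.10 (SE, limma adjusted p = 0.155), and on the MEFs + ALL + DMSO array 9.47. All arrays of both groups with nilotinib lay below all MEFs + DMSO arrays, and the lone array lay within the MEFs + DMSO range. The lone array carries the leukocyte and B-lineage signal given above. Snord49b, also below all MEFs + DMSO arrays in both groups with nilotinib, was below them on the lone array as well. Without ALL cells the drug was tested by MEFs + nilotinib over MEFs + DMSO, where neither gene passed. A part of the drug in the differences of MEFs + ALL + nilotinib was not tested. The comparisons share the MEFs + DMSO arrays, so that they are not independent. The other named differences were small. Snora41, Snord15b and Snord55 differed by 0.17, 0.10 and 0.12, Snord33 and Snord118 by -0.21 and -0.18, with limma adjusted p from 0.560 to 0.671.

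Within nilotinib, MEFs with ALL cells were set against MEFs without. Limma called 0 of 51 snoRNA genes between MEFs + ALL + nilotinib and MEFs + nilotinib, and 66 of all probesets (0.186%). The difference was nevertheless above 0 for 46 genes (90.2%) beside 48% of all probesets, with a median of 0.15 over box C/D genes, 0.16 over box H/ACA genes and -0.01 over all probesets. The box C/D median was 0.08 without MEFs + ALL + nilotinib replicate 3, and the box H/ACA median was 0.27 without MEFs + nilotinib replicate 1. An unadjusted p under 0.05 was reached by 8 genes (15.7%), 7 of them box H/ACA, beside 9.27% of all probesets. Arrays did not overlap and were higher for 10 genes (19.6%, beside 7.8%) and lower for 0 (beside 6.62%). MicroRNA genes had a median of 0.07 in this comparison, and 207 of 300 (69%) lay above 0. In MEFs + nilotinib over MEFs + DMSO their median was -0.07, with 26.7% above 0.

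Snord22, Snora16a and Snora69 again had the largest differences without overlap, at 0.46 ± 0.11, 0.38 ± 0.11 and 0.31 ± 0.09 (SE, limma adjusted p from 0.224 to 0.354). Snora73b read 8.98, 8.90 and 8.92 on the MEFs + ALL + nilotinib arrays, against 8.78, 8.57 and 8.67 on the MEFs + nilotinib arrays, a difference of 0.26 ± 0.07 (SE, limma adjusted p = 0.281). Snord33, within Rpl13a, differed by 0.29 ± 0.14 (SE, limma adjusted p = 0.572), and by 0.12 without MEFs + ALL + nilotinib replicate 2. MEFs + nilotinib replicate 3 had the lowest class medians of all arrays, -0.17 for box C/D and -0.19 for box H/ACA genes relative to the MEFs + DMSO mean, while replicate 1 stood at 0.05 and 0.09. It was the lowest of its group for 20 of 31 box C/D and 14 of 20 box H/ACA genes, and for 31.1% of all probesets.

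The difference between the effects of ALL cells with nilotinib and with DMSO was fitted as well, and rests on the lone array. Limma called 0 of 51 snoRNA genes and 3.95% of all probesets. An unadjusted p under 0.05 was reached by 14 genes (27.5%) beside 19.5% of all probesets, 13 of them below 0. The median was -0.32 over box C/D and -0.22 over box H/ACA genes, against 0.06 over all probesets. Snora69 and Snord52 came nearest, at -0.70 ± 0.16 and -0.90 ± 0.22 (SE, limma adjusted p of 0.055 and 0.064).

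The spread between dishes differed by group and class. The median SD over the 3 arrays was 0.19 for box C/D genes in MEFs + ALL + nilotinib, 0.16 in MEFs + nilotinib and 0.09 in MEFs + DMSO. Box H/ACA genes had 0.09, 0.18 and 0.09 in the same groups, and all probesets 0.13, 0.11 and 0.09. The SD in MEFs + ALL + nilotinib exceeded that in MEFs + DMSO for 25 of 31 box C/D genes (80.6%) and 12 of 20 box H/ACA genes (60%), beside 64.5% of all probesets. In MEFs + nilotinib it exceeded that in MEFs + DMSO for 20 and 15 genes (64.5% and 75%), beside 59.1%. The median SD was thus highest in MEFs + ALL + nilotinib for box C/D genes and in MEFs + nilotinib for box H/ACA genes. Gene by gene, however, the SD in MEFs + ALL + nilotinib exceeded that in MEFs + nilotinib for only 16 of 31 box C/D genes (51.6%). This was so for 5 of 20 box H/ACA genes (25%) and for 56.8% of all probesets. At a mean log2 signal of 7 to 9 lay 17 box C/D and 14 box H/ACA genes. Their medians were 0.19 and 0.07 in MEFs + ALL + nilotinib, where all probesets of that signal had 0.12. In MEFs + nilotinib they were 0.15 and 0.16, beside 0.11. At a signal of 5 to 7 lay 5 box C/D and 6 box H/ACA genes. Their medians were 0.20 and 0.18 in MEFs + ALL + nilotinib, beside 0.15, and 0.23 and 0.20 in MEFs + nilotinib, beside 0.13. The gap between the classes in MEFs + ALL + nilotinib was thus smaller at the lower signal.

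**Figure D5:**
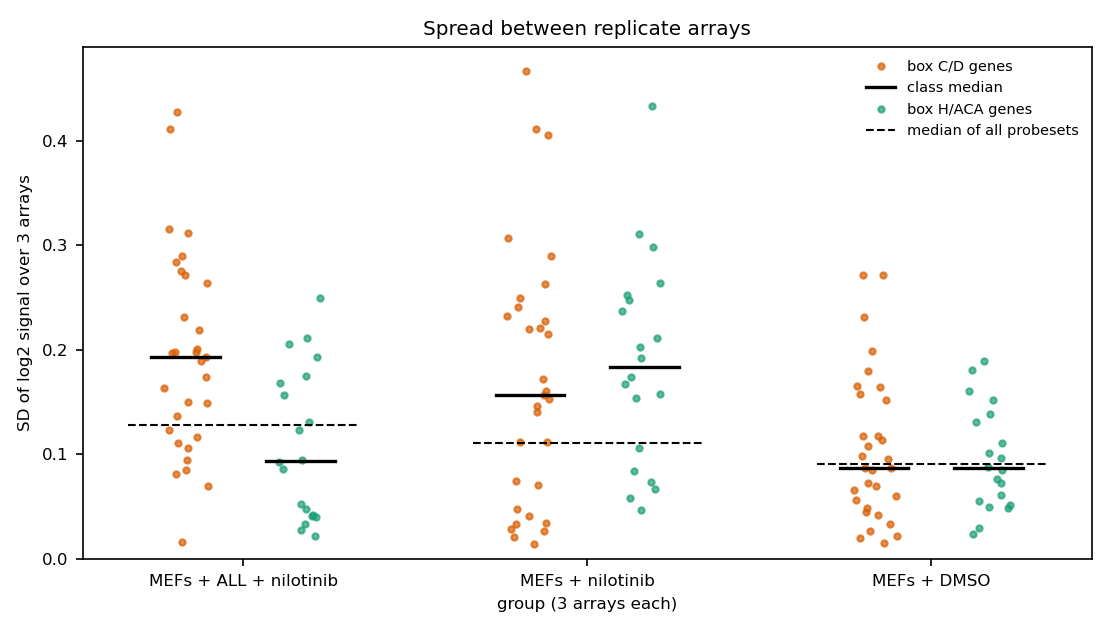
SD of the log2 signal over the 3 arrays of each replicated group for each snoRNA gene (points), with box C/D and box H/ACA genes side by side, the class median (solid line) and the median of all probesets (dashed line). The class median is highest in MEFs + ALL + nilotinib for box C/D genes (0.19) and in MEFs + nilotinib for box H/ACA genes (0.18).

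MEFs + ALL + nilotinib replicate 2 was often the lowest or the highest of its group. It was the lowest for 18 of 31 box C/D genes (58.1%) and 10 of 20 box H/ACA genes (50%), beside 36.1% of all probesets. It was the highest for 9 box C/D genes (29%) and 8 box H/ACA genes (40%), beside 45.7%. Its box H/ACA median relative to the MEFs + DMSO mean was 0.10, where replicates 1 and 3 had 0.10 and 0.15. Its limma array weight was 0.277 where other arrays had 0.686 to 2.01. Snord47, one of the C/D RNAs of Gas5, read 8.69, 7.84 and 8.26 in MEFs + ALL + nilotinib (SD 0.43), against 8.08, 8.27 and 8.09 in MEFs + DMSO (SD 0.11). Snord87 read 7.06, 6.41 and 7.17, against 6.85, 6.74 and 6.91. In these genes replicate 2 was low, whereas Snord22 and Snord33 were highest on it, so the array was not low throughout.

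The genes with the largest mean SD were Snord61 (0.31), Snord49b (0.28), Snord47 (0.26) and Snord58b (0.25), all box C/D. Those with the smallest were Snora73b (0.06), Snord16a (0.07) and Snora7a (0.08). Snord58b and Snord118 lay near the floor of the array, at a mean log2 signal of 4.12 and 4.01, where the lowest value of any probeset was 2.09. Signals of snoRNA genes averaged from 4.01 to 10.14 for box C/D and from 6.15 to 8.83 for box H/ACA genes, and these levels were not compared between probesets. Snord118 (U8) differed by -0.16 in MEFs + ALL + nilotinib, -0.18 in MEFs + nilotinib and -0.09 on the MEFs + ALL + DMSO array, each against MEFs + DMSO. Snord14e, a U14 RNA within Hspa8 that acts in making 18S rRNA, differed by 0.04, -0.10 and 0.26, and Snora73a by 0.13, -0.11 and 0.30. None of these passed the test.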

How the data were processed

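RNA of irradiated MEFs was measured on 10 Affymetrix arrays in 4 groups. The authors deposited log2 signals that they call RMA-normalized, and their notes list Partek without a version. Of 35557 probesets, 21789 carry a single gene symbol. The number of arrays limits the precision. Replicate numbers entered only the replicate block, an alternative.

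Members were found by symbol, and all 51 matched RefSeq genes of GRCm38.p6 by gene ID. The 5 genes with more than 1 probeset of their own were read by the brightest. RefSeq's table gives no strand for them, so a host was the gene with the shortest span that holds the member on either strand, where the plan had asked for the same strand. Limma 3.58.1 under R 4.3.3 fitted 4 group means to all 10 arrays (lmFit, then eBayes). Benjamini-Hochberg adjustment took in every probeset, and 0.05 was the limit for a call. Tables were made in Python 3.11.15. In a test on simulated data, with 200 probesets changed in MEFs + ALL + nilotinib over MEFs + DMSO, the fit found 13.5% of changes of 0.5 in log2 (2 false calls), 88% of those of 1 (8 false calls) and 97% of those of 2 (11 false calls). The simulated noise was independent between arrays and had the same SD in every group. On the deposited arrays the spread differed by group and array, so these shares need not hold there. They do not cover the comparison that rests on 1 array.

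Alternatives were quantile normalization, centring, leaving out the dimmest 25% of probesets, array weights, trend and robust, only the groups compared, a replicate block, the mean of all probesets of a gene, and each replicate left out. Named genes were, for each comparison, those past the threshold, up to 10 in each direction, and the 5 largest of each direction without overlap, together with those of the highest and lowest signal or spread, those of textbook role, and list genes past the threshold or among the 2 largest of their list. Not all of these are printed. Snord87 was added after its values were seen. The members and lists were chosen with earlier results of these data known. The value of 1 pan-leukocyte gene is not reported here.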

Additional observations from a re-analysis of the deposited data

Results flagged for a closer look

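For the genes below, all outside the snoRNA classes, the effect of ALL cells under nilotinib minus that under DMSO passed the test of the difference itself (limma adjusted p under 0.05), which rests on the single MEFs + ALL + DMSO array. The log2 difference between the effects was -4.15 for Igll1, -3.28 for Coro1a, -2.11 for Taf1d, -1.64 for Dkc1, -0.82 for Exosc3 and -0.64 for Nolc1. Igll1 and Coro1a are the leukocyte and B-lineage markers with the largest effects, and 13 of the 17 markers of that list passed this test, all below 0. Taf1d, Dkc1, Exosc3 and Nolc1 come from the lists of snoRNA hosts, core proteins, trimming and assembly. Of the snoRNA genes 0 passed this test, and 14 had an unadjusted p under 0.05. Groups of 3 arrays give Dixon's test of an outlying sample little power.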

How the results depend on the processing

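In MEFs + ALL + nilotinib over MEFs + DMSO, 0 snoRNA genes and 223 probesets were called. Array weights called 2 and 1263, trend and robust 1 and 476, leaving out the dimmest 25% 1 and 421, and only the groups compared 0 and 12. In MEFs + ALL + nilotinib over MEFs + nilotinib, 66 probesets became 141, 117, 115 and 4 under the same alternatives, with 0 snoRNA genes called in each. In MEFs + ALL + DMSO over MEFs + DMSO, array weights called 19 snoRNA genes and 6615 probesets, against 12 and 3651. With the replicate block the count of probesets was 8 in MEFs + ALL + nilotinib over MEFs + DMSO, 0 in MEFs + nilotinib over MEFs + DMSO and 12 in MEFs + ALL + nilotinib over MEFs + nilotinib, with 0 snoRNA genes in each. Same-numbered arrays deviated from their group means with correlations from -0.293 to 0.241. With 3 arrays per group these values cannot show whether the numbers paired the dishes.

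With 1 array left out, probesets called ran from 8 to 99 for MEFs + ALL + nilotinib and from 0 to 57 for MEFs + nilotinib, both over MEFs + DMSO, and from 12 to 36 between the groups with nilotinib. For the lone array they ran from 2137 to 2491. The 57 came without MEFs + nilotinib replicate 1. SnoRNA genes called were 0 in each of the first 3 comparisons and ran from 9 to 10 in the last. In MEFs + nilotinib over MEFs + DMSO the median ran from -0.0754 to 0.0795 for box C/D genes, the highest without MEFs + nilotinib replicate 3, and from -0.142 to 0.00919 for box H/ACA genes, so its sign was not settled. In MEFs + ALL + nilotinib over MEFs + nilotinib the box H/ACA median ran from 0.12 to 0.27, the highest without MEFs + nilotinib replicate 1. The box C/D median ran from 0.05 to 0.14 in MEFs + ALL + nilotinib over MEFs + DMSO and from 0.08 to 0.17 over MEFs + nilotinib. The cause was not tested. Under the other alternatives run, class medians and spreads moved by less than 1 SD. Among these, quantile normalization lowered the box C/D median of MEFs + ALL + DMSO over MEFs + DMSO from 0.52 to 0.44.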
